A study of Mus musculus with 2 samples.

Results

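Chromatin accessibility was examined at 10 genes of the Wnt and R-spondin pathway in basal keratinocytes of mouse back skin, comparing force-expanded skin with untreated skin. The genes are Lgr4, Lgr5, Lgr6, Znrf3, Rnf43, Axin2, Lef1, Tcf7, Tcf7l1 and Tcf7l2. A region belonged to one of them when that gene had the nearest span of a protein-coding gene in RefSeq (GRCm38), within 50 kb, and when it held at least 20 counts summed over both libraries. This gave 144 regions, of 81227 near any protein-coding gene and 94857 with that many counts. A further 22 regions next to the genes had fewer counts, 19 at most, and the sparsest region kept had 20.

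The stretched library came from a CD1 mouse, an outbred stock, whose back skin had been expanded by force, and the control library from an untreated CD1 mouse. Each group was thus 1 library of 1 animal, made from 10000 interfollicular cells sorted as positive for ITGA6, an integrin of basal cells, and negative for CD34, a marker of follicle stem cells. ATAC-seq marks open DNA through insertion of adapters by the Tn5 transposase. The stretched library held 11803785 raw counts and the control library 8820178, spread over 109257 merged regions. With no replicates there is no test, and any difference between the conditions cannot be told apart from a difference between the animals or the libraries. Folds are stretched over control after TMM scaling, which divides the raw ratio of counts by 0.946 and sets the median region near 1. Brackets after a fold give exact 95% Clopper-Pearson intervals. Brackets after a ratio between folds give intervals of another kind, from the counts of both folds. Intervals of either kind cover counting error only. A region was called higher or lower at a fold of at least 2 whose interval excludes 1. In sorted bulk cells, a site open in fewer cells and a site less open in each cell cannot be told apart.

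Canonical Wnt signalling stabilises beta-catenin, which enters the nucleus and binds TCF/LEF factors at their target genes. R-spondins raise the response: they bind LGR4, LGR5 or LGR6 and take away ZNRF3 and RNF43, ubiquitin ligases that otherwise remove Frizzled receptors from the cell surface. In skin, Lgr5 marks follicle stem cells, Lgr6 marks cells of the follicle isthmus and of the interfollicular epidermis, and basal cells of the epidermis express the Wnt target Axin2.

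The sequences directly upstream of the annotated starts of 3 genes are shown because their start regions had the values farthest from 1, Lgr4 and Axin2 above it and Lgr6 below it. Each line is the 250 bases before the start, 5′ to 3′ on the gene's strand, from RefSeq (GRCm38.p6). They are Lgr4 at chr2:109917397-109917646 (+ strand), Lgr6 at chr1:135105277-135105526 (- strand) and Axin2 at chr11:108920099-108920348 (+ strand). Capitals mark CCAAT or GGGCGG on either strand.
Lgr4: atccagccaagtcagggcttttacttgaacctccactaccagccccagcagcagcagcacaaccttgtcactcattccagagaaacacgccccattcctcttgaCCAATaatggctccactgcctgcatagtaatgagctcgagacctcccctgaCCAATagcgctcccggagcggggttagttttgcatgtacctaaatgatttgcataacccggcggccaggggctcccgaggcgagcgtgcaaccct
Lgr6: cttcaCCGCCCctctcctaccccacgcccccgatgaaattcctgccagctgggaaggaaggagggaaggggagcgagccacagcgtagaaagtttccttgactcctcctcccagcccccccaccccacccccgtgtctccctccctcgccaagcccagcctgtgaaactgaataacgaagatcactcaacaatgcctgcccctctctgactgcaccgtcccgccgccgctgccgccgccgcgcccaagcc
Axin2: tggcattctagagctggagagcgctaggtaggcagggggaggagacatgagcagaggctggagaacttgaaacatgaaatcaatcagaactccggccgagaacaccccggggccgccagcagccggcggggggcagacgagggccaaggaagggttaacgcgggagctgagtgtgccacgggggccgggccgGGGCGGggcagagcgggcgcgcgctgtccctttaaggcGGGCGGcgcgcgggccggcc

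The Lgr4 window held 2 matches to CCAAT and none to GGGCGG, whereas the Lgr6 and Axin2 windows held 1 and 2 matches to GGGCGG and none to CCAAT. Their GC content was 55.6% for Lgr4, 65.2% for Lgr6 and 69.2% for Axin2, against a median of 52.4% over all windows. RefSeq gave 14 start windows for 8 of the 10 genes, those of Lgr4, Lgr6, Rnf43, Axin2, Lef1, Tcf7, Tcf7l1 and Tcf7l2. The TCF/LEF core CTTTGA was searched on both strands and occurred in 1 of these 14, an internal start of Lef1, and in 13.8% of all 32851 windows of the same length. The AP-1 letters TGANTCA occurred in none of the 14 and in 6.75% of all windows. CCAAT was in 1 of the 14 and in 33.8% of all windows. GGGCGG was in 9 of the 14 and in 32.7% of all windows. These 9 windows were of Lgr6, Axin2, Lef1, Tcf7, Tcf7l1 and Tcf7l2, and some of them overlap. A match is a description of the letters and no evidence of binding.

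Taken over all 144 regions, the pathway genes leaned towards lower accessibility in the stretched library. There were 24 lower regions (16.7%) and 7 higher regions (4.86%). Among all 81227 regions near a protein-coding gene, 8.66% were lower and 6.9% higher. The median log2 fold was -0.26 over the 144 regions and -0.01 over all, and 66.7% of the 144 lay below a fold of 1, against 50.4% of all. The lower regions were spread over 7 of the genes, 6 at Lgr6, 5 each at Znrf3 and Tcf7l2, 3 each at Lef1 and Tcf7l1 and 1 each at Axin2 and Tcf7. The higher regions were at Lgr4 (4), Lgr5 (2) and Tcf7l2 (1), and Rnf43 had none of either. Regions of 1 gene share a locus and are not independent of each other.

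**Figure D1:**
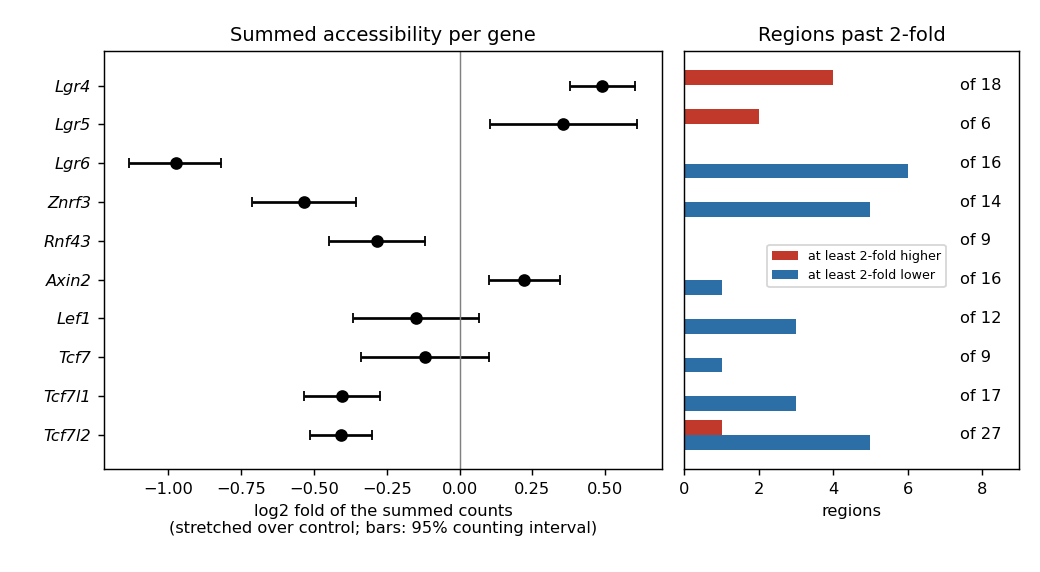
Left, log2 fold of the counts summed over the regions of each gene, stretched over control, with exact 95% counting intervals. Right, the number of regions at least 2-fold higher or lower and the number of regions per gene. Lgr6 lies lowest at -0.98, followed by Znrf3 at -0.53, and Lgr4 lies highest at 0.49.

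Lower calls were more frequent among the regions of the 10 genes than among all regions in each band of summed counts. Of the 33 regions with at least 160 counts, 2 were lower (6.06%) and 1 higher (3.03%), while 1.46% of all such regions were lower and 7.09% higher. Between 40 and 80 counts, 11 of 46 were lower (23.9%) and 4 higher (8.7%), against 12.7% and 7.12% of all. The 9 regions of the Wnt genes that touch an annotated end of a gene had a median log2 fold of -0.03 and no call in either direction. Over all such regions the median was 0.30, with 9.94% called higher and 2.47% lower. Inside genes, away from their ends, 18 of 104 regions were lower (17.3%) and 5 higher (4.81%), against 9.93% and 5.94% of all.

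**Figure D2:**
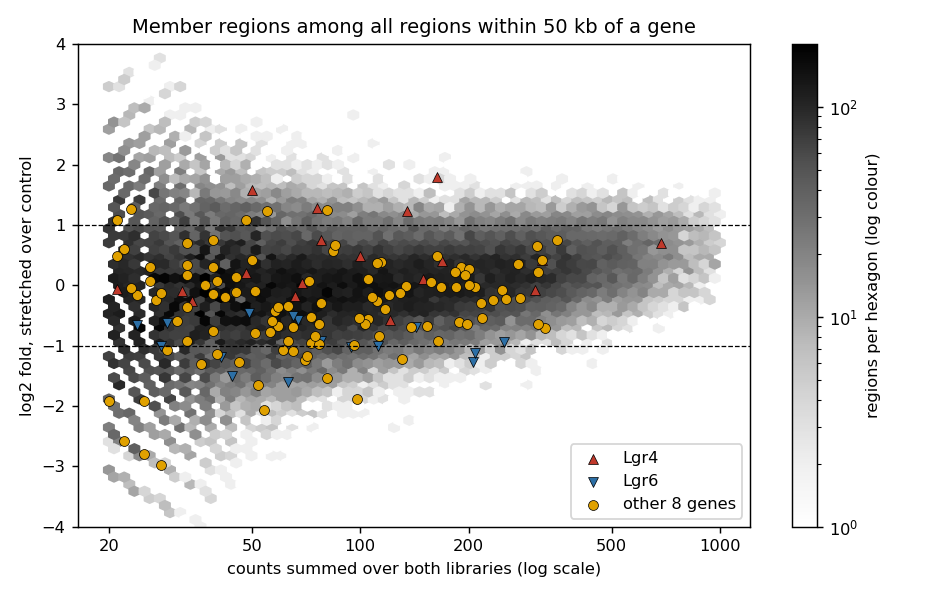
Log2 fold against the summed counts of a region (log scale), for all regions up to 1000 counts within 50 kb of a protein-coding gene (grey hexagons) and the regions of the 10 genes (symbols). Dashed lines mark 2-fold. A single region of Znrf3, with a fold of 0.0423, lies off the plot.

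The R-spondin receptors gave the largest contrast, with Lgr4 higher and Lgr6 lower. Lgr4, on chromosome 2 from 109917647 to 110014257, had 1497 counts in the stretched and 1126 in the control library over 18 regions. Its summed fold was 1.40 (1.30 to 1.52). Lgr6, on chromosome 1 from 134983300 to 135105374, had 488 counts in the stretched and 1014 in the control library over 16 regions, a fold of 0.509 (0.456 to 0.567). The fold of Lgr4 was 2.76 times that of Lgr6 (2.41 to 3.16), a ratio that a single scaling factor per library does not alter. With a trend over counts removed by lowess, the folds were 1.26 for Lgr4 and 0.507 for Lgr6. Scaled to total counts, which puts the median log2 fold of all regions at -0.51, the folds of Lgr4 and Lgr5 were 0.993 and 0.905, so their direction rests on the scaling. Among the 2057 genes with at least 10 regions, Lgr6 had the 12th lowest summed fold and Lgr4 the 251st highest.

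All 16 Lgr6 regions with at least 20 counts lay below a fold of 1, between 0.330 and 0.729. Of 3 sparser regions next to Lgr6, which were not among the 16, 1 had fewer stretched than control counts (6 and 9) and the others had more (9 and 8, and 10 and 8). Of the 2057 genes with at least 10 regions, 47 had every region below 1, and 14 of the 823 genes with at least 16 regions did. The region at the Lgr6 start, 135104634 to 135106341, had the most counts of the gene, 83 in the stretched and 168 in the control library. Its fold of 0.522 (0.396 to 0.683) falls just short of the 2-fold limit. The largest decrease, at 135089655 to 135090309, lay 15.3 kb into the gene, with 15 stretched and 48 control counts and a fold of 0.330 (0.172 to 0.600). At 135058195 to 135058565, 46.9 kb into the gene, the stretched library had 11 counts and the control 33 (fold 0.352, 0.161 to 0.714). A stronger site 69.0 kb into the gene, at 135035673 to 135036978, had 58 stretched and 148 control counts (0.414, 0.300 to 0.565). The 6 lower sites all lay inside the gene, between 15.3 and 69.0 kb from its start.

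At Lgr4 the 4 higher sites all lay inside the gene, and no region was lower. The region at the Lgr4 start, 109917225 to 109918371, had 415 stretched and 270 control counts, the most of any region of the 10 genes, and a fold of 1.62 (1.39 to 1.90). The largest increase was 90.1 kb into the gene, at 110007338 to 110008227, where the stretched library had 125 counts and the control 38, a fold of 3.48 (2.40 to 5.14). Its summit pileup, the number of fragments over the highest point, was 98 in the stretched and 20 in the control library. A site at 109958856 to 109959443 had 37 stretched and 13 control counts (3.01, 1.56 to 6.17), with no listed peak in either library. Another at 109996075 to 109996791 had 53 and 23 counts in the stretched and control libraries (2.44, 1.47 to 4.16). Of the 18 regions 12 lay above 1 and 6 below, from 0.671 to 3.48.

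**Figure D3:**
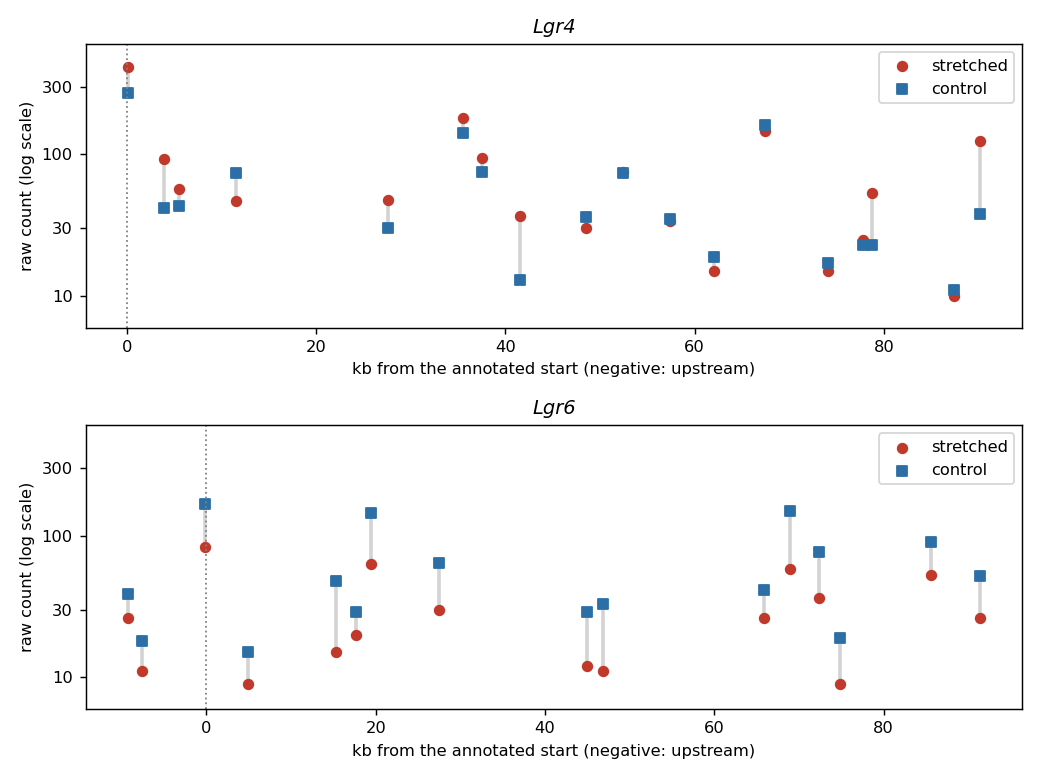
Raw counts (log scale) in the stretched (red circles) and control (blue squares) libraries at each region of Lgr4 (top) and Lgr6 (bottom), by distance of the region's centre from the annotated start in kb. At Lgr6 the stretched count is below the control count in all 16 regions shown, each with at least 20 counts. At Lgr4 the stretched count is above the control count in most of the 18 regions, among them the start region and the 4 called sites.

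Lgr5 had the fewest regions of the 10 genes. On chromosome 10 from 115450314 to 115587780, it had 6 regions with 292 stretched and 241 control counts in all, a fold of 1.28 (1.08 to 1.52). The region at its high-coordinate end, 115585905 to 115588006, had 100 and 108 counts in the stretched and control libraries, a fold of 0.978 (0.738 to 1.30). Both called sites were higher in the stretched library. One lay inside the gene at 115550006 to 115550658, with 56 stretched and 25 control counts (2.37, 1.45 to 3.96). The other lay 6018 bp outside it, at 115443654 to 115444296, with 32 stretched and 16 control counts (2.11, 1.13 to 4.12). The summed folds of Lgr4 and Lgr5 differed 1.10-fold (0.905 to 1.33), an interval that includes 1. Lgr5 over Lgr6 gave 2.52 (2.05 to 3.10).

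Znrf3 and Rnf43, whose products remove Frizzled receptors, both had summed folds below 1. Znrf3, on chromosome 11 from 5276329 to 5444847, had 423 stretched and 647 control counts over 14 regions, a fold of 0.691 (0.610 to 0.782). Rnf43, on chromosome 11 from 87663087 to 87735539, had 533 stretched and 685 control counts over 9 regions, a fold of 0.822 (0.733 to 0.922).

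At Znrf3 the region at the end of the gene lay above the others. Over all genes the direction was the same, with a median log2 fold of 0.30 for regions touching a gene end and -0.08 for those inside. The region at its high-coordinate end, 5443338 to 5445724, had 164 stretched and 149 control counts, a fold of 1.16 (0.926 to 1.46). The other 13 regions together had 259 stretched and 498 control counts, a fold of 0.550 (0.471 to 0.640), so that the end region exceeded them 2.12-fold (1.60 to 2.79). Single folds among the 13 reached 1.23, at a region with 14 stretched and 12 control counts. All 5 lower regions were inside the gene and had few counts. At 5426966 to 5427613 there were 10 stretched and 44 control counts, a fold of 0.240 (0.108 to 0.484). At 5434039 to 5434911 there were 3 and 19 in the stretched and control libraries, a ratio of 0.167 (0.0316 to 0.567), and at 5291272 to 5291736 there were 1 and 25, a ratio of 0.0423 (0.00103 to 0.258). No library had a listed peak in these last regions. Copy number and sequence differences between the outbred animals were not measured.

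Rnf43 had no called region, and its folds ran from 0.504 to 1.06. At its start, 87662257 to 87663264, the stretched library had 117 counts and the control 131 (0.944, 0.729 to 1.22). The region with the most counts, 87725621 to 87726935, had 114 stretched and 141 control counts (0.854, 0.662 to 1.10).

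Axin2, a scaffold of the beta-catenin destruction complex that Wnt signalling itself induces, was higher upstream and lower downstream. On chromosome 11 from 108917828 to 108950783, its 16 regions summed to 1130 stretched and 1023 control counts, a fold of 1.17 (1.07 to 1.27). This fold became 0.825 with scaling to total counts. It was 1.05 (0.963 to 1.15) with the lowess trend removed and 1.06 (0.972 to 1.15) with scaling without the largest regions. Both of these intervals include 1. The interval with the trend removed is approximate, since it uses stretched counts divided by the fitted trend. The region over its RefSeq start window, 108919960 to 108922219, had 216 stretched and 136 control counts, a fold of 1.68 (1.35 to 2.096). The 4 regions upstream of the start had 542 stretched and 412 control counts in sum (1.39, 1.22 to 1.58), and each lay above 1, from 1.28 to 1.56. The 7 regions beyond the other end of the gene had 130 stretched and 233 control counts (0.590, 0.472 to 0.734), and each lay below 1, the lowest with 3 stretched and 25 control counts at 108991966 to 108992377, a ratio of 0.127 (0.0245 to 0.416). Start and upstream regions together exceeded the downstream ones 2.48-fold (1.94 to 3.18), a grouping made after the values were seen. This ratio is not corrected for the trend over counts. The downstream regions had 24 to 105 counts each and the start region 352. Over all genes, the median log2 fold was 0.22 at 160 or more counts and -0.13 between 40 and 80. The 4 sites within the gene summed to 242 counts in each library. Assignment to Axin2 is by distance, and the downstream regions lie up to 47219 bp from it.

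The TCF/LEF genes encode the DNA-binding partners of beta-catenin. LEF1 and TCF7 act mostly as activators, while TCF7L1 (TCF3 in the older literature) is mostly a repressor and is known from follicle stem cells. Tcf7l1 and Tcf7l2 had summed folds below 1, and the intervals of Lef1 and Tcf7 included 1.

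Tcf7l1, on chromosome 6 from 72626371 to 72789045, had 827 stretched and 1157 control counts over 17 regions, a fold of 0.755 (0.690 to 0.827). The start region, 72788400 to 72789837, had 96 stretched and 87 control counts (1.17, 0.863 to 1.58). The 12 regions inside the gene had 460 stretched and 758 control counts, a fold of 0.641 (0.570 to 0.721), and 11 of them lay below 1. Start over interior gave 1.82 (1.31 to 2.52). Regions at gene ends also lay above those inside over all genes (median log2 folds of 0.30 and -0.08). The site with the most counts, at 72723863 to 72725404 and 64.4 kb into the gene, had 120 stretched and 206 control counts (0.616, 0.487 to 0.775). The largest decreases were at 72714803 to 72715382, with 3 stretched and 22 control counts (a ratio of 0.144, 0.0276 to 0.480), and at 72650150 to 72651188, with 20 stretched and 61 control counts (0.346, 0.198 to 0.582).

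Tcf7l2, on chromosome 19 from 55741797 to 55933659, had the most regions, 27, with 1217 stretched and 1704 control counts and a fold of 0.755 (0.701 to 0.813). Its start region, 55740991 to 55742061, had 94 stretched and 122 control counts (0.814, 0.615 to 1.07), and an internal start at 55895246 to 55896294 had 25 stretched and 34 control counts (0.777, 0.444 to 1.34). The region with the most counts, 55870607 to 55871792, had 118 stretched and 194 control counts (0.643, 0.507 to 0.812). The largest decrease lay 9.03 kb upstream, at 55732349 to 55733218, with 20 stretched and 78 control counts (0.271, 0.157 to 0.447). The single higher site, at 55713864 to 55714569 and 27.6 kb upstream, had 38 stretched and 17 control counts (2.36, 1.30 to 4.46). A lower site lay close to it, at 55710723 to 55711332, with 21 stretched and 50 control counts (0.444, 0.253 to 0.753). Neighbouring sites upstream of Tcf7l2 thus differed in direction. This last site and the internal start were chosen after their values were seen.

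Lef1, on chromosome 3 from 131110297 to 131224357, had 331 stretched and 388 control counts over 12 regions, a fold of 0.901 (0.776 to 1.05). The region at its start, 131110249 to 131110678, had 24 stretched and 27 control counts (0.939, 0.519 to 1.69). The region with the most counts, 131111183 to 131112576, had 107 stretched and 94 control counts (1.20, 0.903 to 1.60). All 3 called regions of Lef1 were lower, and the one with the most counts, at 131182104 to 131182707, had 20 stretched and 50 control counts (0.423, 0.238 to 0.723). The one with the largest decrease, at 131227936 to 131228386, had 5 stretched and 20 control counts (0.264, 0.0775 to 0.725). Tcf7, on chromosome 11 from 52246527 to 52283383, had 319 stretched and 366 control counts over 9 regions, a fold of 0.921 (0.790 to 1.07). Its start region, 52282522 to 52284118, had 101 stretched and 95 control counts (1.12, 0.841 to 1.503), and its only called region, 14.6 kb upstream, had 19 stretched and 42 control counts (0.478, 0.263 to 0.840).

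The authors' peak lists give a further readout of the same libraries. Both libraries had a listed peak in 89 of the 144 regions, and 26 had none in either. A peak in the stretched library only was found in 17 of the 144 (11.8%) and in the control library only in 12 (8.33%), against 14.1% and 9.24% of the 81227 regions near any gene. At Lgr6, 1 region had a peak in the stretched library only and 3 in the control library only. At Lgr4 and Tcf7 these counts were 3 and 0, and at Lef1, whose summed count fold is below 1, they were 5 and 0. Relative to filtered fragments, the summit pileup of the median region with peaks in both libraries was 1.48 times as high in the stretched library, so pileups are given relative to that median. On this scale the pileup summed over shared peaks was 0.519 for Lgr6 and 1.49 for Lgr4, 0.838 for Znrf3, 0.825 for Rnf43, 1.16 for Axin2, 0.865 for Tcf7l1 and 0.853 for Tcf7l2. Lef1 was at 1.11 by pileup over 3 shared peaks and 0.901 by counts, Lgr5 at 1.05 by pileup and 1.28 by counts, and Tcf7 at 0.667 by pileup and 0.921 by counts. Counts and relative pileup went in the same direction in 71 of the 89 regions, and both were lower in all 8 regions of Lgr6 with a peak in each library. Both readouts come from the same libraries, so they are not independent. The share over all 49592 regions with peaks in both libraries was not computed.

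**Figure D4:**
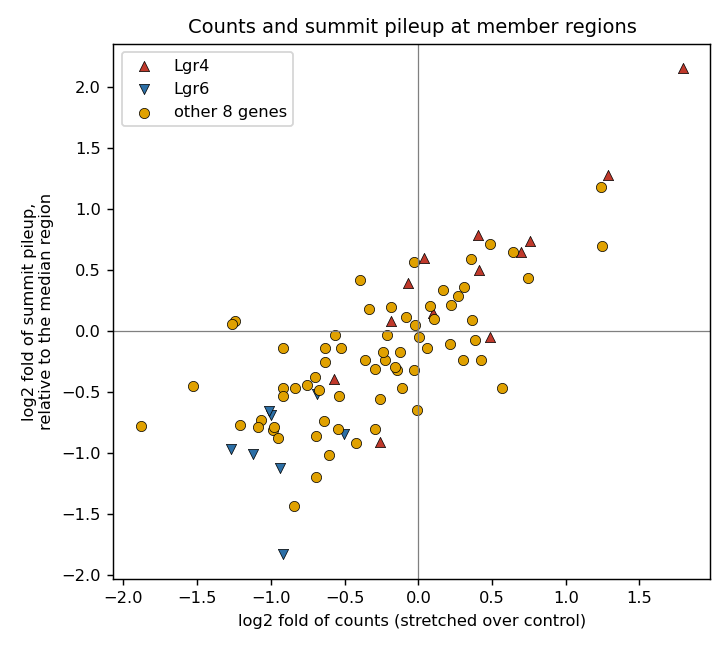
Log2 fold of the summit pileup, relative to the median region with peaks in both libraries, against the log2 fold of the counts, for the 89 regions of the 10 genes with a peak in both. All 8 Lgr6 points lie in the lower left quadrant, and 8 of 13 Lgr4 points in the upper right.

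The surroundings of the genes were compared, since direction can be shared over a locus. The Lgr6 regions had a median fold of 0.511, against 0.800 for the 75 other regions within 500 kb. The Tcf7l1 regions had a median of 0.667 and their surroundings 1.06, and the Znrf3 regions had 0.578 and their surroundings 0.833. At Lgr4 the medians were 1.24 for its own regions and 1.29 for the surroundings, and at Tcf7l2 they were 0.746 and 0.783. The medians of Lgr4 and Tcf7l2 thus lay close to those of their neighbourhoods, as did those of Rnf43 (0.944 and 0.904) and Axin2 (0.900 and 0.925). Lef1 lay below its surroundings (0.962 and 1.21) and Tcf7 above them (0.925 and 0.824). The Lgr5 regions, with a median of 1.21, lay below their surroundings at 1.59. The part of the neighbourhood in these folds was not tested.

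With TMM scaling, basal keratinocyte markers had a summed fold above 1, and each list of markers for other cells in the skin had one below 1. The intervals of the melanocyte and immune lists included 1, and genes within each list lay on both sides of it. Scaling to total counts put the median log2 fold of all regions at -0.51, and scaling without the largest regions at -0.15. The place of the basal list above 1 thus rests on the scaling. Krt5, Krt14, Itga6, Trp63 and Col17a1, genes of basal keratinocytes, all had regions, and their summed fold was 1.10 (1.06 to 1.14), with genes from 0.891 to 1.22. Follicle stem cell genes summed to 3356 stretched and 3839 control counts over 6 of 6 genes (0.924, 0.882 to 0.968), ranging from 0.690 for Krt15 to 1.39 for Cd34, and Lgr5 is itself 1 of the 6. Fibroblast genes summed to 540 stretched and 700 control counts over 4 of 5 genes (0.815, 0.727 to 0.913), from 0.456 to 1.69 by gene, and Lum had no region. Suprabasal genes had regions in 4 of 4 and were at 0.873 (0.800 to 0.952), with Krt1 at 0.629 and Krt10 at 0.598 but Ivl at 1.22 and Lor at 1.24. Melanocyte genes had regions in 4 of 5, all but Tyr, and were at 0.934 (0.871 to 1.002), from 0.876 to 1.16 by gene. Immune genes, with Epcam among them, had regions in 5 of 5, at 0.968 (0.868 to 1.08), from 0.499 to 1.57 by gene. Endothelial genes had regions in 3 of 3, at 0.901 (0.821 to 0.988), from 0.838 to 1.43 by gene. Their part in the folds of the Wnt genes was not tested.

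The other genes of the pathway were called about as often as all regions. Of 70 genes listed, 69 had regions, and of their 504 regions 37 were lower (7.34%) and 35 higher (6.94%), with a median log2 fold of -0.07. By gene, 23 summed intervals lay above 1 and 15 below, but the shares over all genes were not computed. Regions with at least 160 counts, which weigh most in a sum, had a median log2 fold of 0.22 over all genes. These 2 counts are therefore not a result about the pathway.

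By role, the destruction complex, which marks beta-catenin for degradation, had 11 higher (12.9%) and 4 lower (4.71%) of 85 regions and a median log2 fold of 0.17. The shares among all regions were 6.9% higher and 8.66% lower. In this list, 5 of the higher regions belonged to Csnk1a1, the gene of casein kinase 1 alpha (fold 1.37, 1.27 to 1.49). Apc itself was at 1.05 (0.909 to 1.21). Wnt receptors and their transducers had 3 higher (2.08%) and 8 lower (5.56%) of 144 regions, both below the shares of all regions. The co-receptor genes differed, with Lrp5 at 0.697 (0.636 to 0.762), 3 of 17 regions lower, and Lrp6 at 1.38 (1.20 to 1.59), none of 10 called. Among Frizzled genes with at least 3 regions, folds ran from 0.661 (0.573 to 0.761) for Fzd2 to 1.52 (1.31 to 1.76) for Fzd4. Nuclear cofactors had 9 higher and 9 lower of 117 regions (7.69% each), near the shares of all regions. Ctnnb1, the beta-catenin gene, was at 0.955 (0.860 to 1.06), while the corepressor genes Tle4 and Tle1 were at 1.44 (1.33 to 1.55) and 1.83 (1.65 to 2.03), each with 3 higher regions. The corepressor genes did not share a direction, with Tle3 at 0.683 (0.625 to 0.747) and 2 lower regions, and Tle2 at 0.956 (0.756 to 1.21). Bcl9, a coactivator gene, also had 3 higher regions, on fewer counts, and 1 lower, at 1.20 (1.07 to 1.35). Tle2, Tle3 and Bcl9 were added after their values were seen. Ctnnbip1, an inhibitor of the beta-catenin to TCF contact, had 3 lower regions and a fold of 0.851 (0.781 to 0.927). Antagonists and targets had 6 higher (4.62%) and 10 lower (7.69%) of 130 regions, 3 of the lower ones at Dkk3 (0.809, 0.723 to 0.904). Secreted agonists and the genes for Wnt secretion had 6 higher and 6 lower of 28 regions (21.4% each), the smallest of the lists. Their median log2 fold was 0.61, and by gene 3 summed intervals lay above 1 and 2 below. Those above were Porcn at 1.79 (1.30 to 2.49), Wls at 1.63 (1.43 to 1.86) and Ndp at 1.79 (1.29 to 2.51). Porcn, Wls and Ndp were added after their values were seen. The R-spondin gene Rspo1 had 41 stretched and 112 control counts (0.387, 0.264 to 0.558), with 3 of 4 regions lower. Rspo3 had 250 stretched and 357 control counts (0.740, 0.627 to 0.872), and Rspo4 had 128 and 119 in the stretched and control libraries (1.14, 0.879 to 1.47).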

How the data were processed

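The submitters' processing notes name GRCm38 as the build, with alignment and filtering tools Bowtie2 2.2.6, SAMtools and Picard, the peak caller MACS2 2.1.0.20151222, and HTSeq. The authors deposited, for both libraries, unnormalised counts at 109257 shared merged regions. Which program counted them, and whether duplicates were removed first, is not stated in these sources. MACS2 was run separately for the 2 libraries, per the file headers, on 23876613 filtered fragments of the stretched and 31944854 of the control library. The authors' summit pileup is a signal in fragments. Their deposited -log10 p and q-values, and the ratio called fold enrichment in the deposited peak tables, are relative to local background within a library and carry no result here.

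Counts were scaled with TMM in edgeR 4.0.16 (R 4.3.3), and tables were handled in Python 3.11.15 with pandas 2.3.3, numpy 2.4.6, scipy 1.17.1 and matplotlib 3.10.9. DESeq2 1.42.0 gave size factors as an alternative scaling. Region starts are printed 1-based. Within a gene, the regions named were the one with the most counts, those touching an annotated end and up to 3 called regions with the largest fold in each direction. At Tcf7l2, a lower site upstream and an internal start were named outside this rule, and larger decreases than that site were not named. Of the other pathway genes, the 3 with the most called regions each way were named, and Fzd, Lrp5, Lrp6, Ctnnb1, Apc and Rspo genes with at least 3 regions could be. The genes and lists were chosen with earlier results of these data known. Motif letters, ratios between folds and classes by side of a gene were chosen after values were seen. The scripts were tested on simulated data. Intervals cover counting error only, and reads amplified by PCR are not independent molecules.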

Additional observations from a re-analysis of the deposited data

How the results depend on the processing

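No paired analysis was possible because each group was 1 library, and there was no replicate to leave out. Scaling to total counts put the median log2 fold of all regions at -0.51 and gave 2 higher and 60 lower regions of the 10 genes (1.47% and 23.4% of all regions were then called), with 10 and 124 for the other pathway genes; it turned Lgr4 to 0.993, Lgr5 to 0.905 and Axin2 to 0.825. Scaling without the largest regions gave 58 lower regions for the other pathway genes (11.8% of all regions). A minimum of 50 counts left 13 lower of 98 regions of the 10 genes (13.3%), and 18 higher and 16 lower of the others, against 6.11% higher and 6.04% lower of all 52849 regions. A 1.5-fold limit gave 12 higher (8.33%) and 43 lower (29.9%), and 62 and 69 for the others, against 14.4% and 13.9% of all. Pileup per fragment, without setting the median to 1, gave 1.24 for Znrf3, 1.22 for Rnf43, 1.28 for Tcf7l1, 1.26 for Tcf7l2, 1.64 for Lef1, whose count fold was 0.901, and 2.19 for Lgr4, whose count fold was 1.40, against a median of 1.48 over all regions. Lgr6 stayed between 0.360 and 0.767 under 14 alternatives. The cause of these shifts was not tested. Relative pileup and the restriction to regions outside gene ends were alternatives chosen after seeing the data.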
